A study of Mus musculus with 12 samples.

Results

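The Rab GTPases of vesicle traffic were examined in mouse splenic dendritic cells as the genes whose symbol is Rab followed by a number and at most a few letters. The pattern matched 63 of the 19938 genes with a value, and 57 of these were bright enough to test among 14953 tested genes. The other 6 (Rab3b, Rab3c, Rab15, Rab27b, Rab33a and Rab42) had a mean log2 intensity in the lowest 0.25 of all genes. Rab27b, at 4.76, lay just under the limit of 4.78. Just over it lay Rab39, Rab23, Rab3a and Rab4a, at 4.90 to 4.96. Of the 63 genes, 59 encode Rab GTPases, of which 53 were tested. The remaining 4 are not GTPases: Rab3ip and Rab3il1 encode exchange factors that activate Rabs, Rab5if encodes a factor named for its interaction with Rab5, and Rab10os is a transcript from the strand opposite Rab10.

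RNA of mature conventional dendritic cells sorted from mouse spleen at steady state had been hybridised to 12 GeneChip arrays. The 6 groups were Flt3L KO cDC1, Flt3 KO cDC1, WT cDC1, Flt3L KO cDC2, Flt3 KO cDC2 and WT cDC2, with 2 arrays per group that the labels call biological replicates. KO stands for knockout and WT for wild type, Flt3 is a cytokine receptor on dendritic cells and their progenitors, and Flt3L (gene Flt3l) is what binds it. The labels used here state neither the age or strain of the mice, nor how the alleles were made, nor whether mice were pooled for an array. P-values therefore measure the spread between these arrays.

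Rab proteins are small GTPases that mark the membranes of organelles and vesicles. In the GTP-bound state, set by exchange factors and ended by GTPase-activating proteins, they recruit effectors such as tethers, motors and lipid kinases, and different Rabs serve the early endosome, recycling to the surface, the lysosome, the Golgi and secretion. Dendritic cells use these routes to take up, degrade and present antigen. cDC1 are known for presenting antigen from dead cells on MHC class I, and cDC2 for priming CD4 T cells.

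Promoter sequences are shown for 2 genes that differed between the cell types in all 3 genotypes and held one of the 6 motifs searched, Rab32, higher in cDC1, and Rab21, lower in cDC1. They are RefSeq sequences of GRCm38.p6, from 250 bases before to 50 bases after the start of the gene, written 5′ to 3′ on the strand of the gene. Capitals mark a PU.1 motif (GAGGAAGT) in Rab32, which starts at base 208, and a CLEAR motif (TCACGTGA, the element named for the coordinated lysosomal genes) in Rab21, which starts at base 220.
Rab32, chr10:10558158-10558457, minus strand: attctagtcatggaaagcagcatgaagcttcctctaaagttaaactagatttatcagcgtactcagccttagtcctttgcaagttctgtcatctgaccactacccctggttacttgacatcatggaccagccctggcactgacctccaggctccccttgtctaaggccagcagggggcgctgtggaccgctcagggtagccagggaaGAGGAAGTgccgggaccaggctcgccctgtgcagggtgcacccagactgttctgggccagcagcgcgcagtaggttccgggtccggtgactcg
Rab21, chr10:115315542-115315841, minus strand: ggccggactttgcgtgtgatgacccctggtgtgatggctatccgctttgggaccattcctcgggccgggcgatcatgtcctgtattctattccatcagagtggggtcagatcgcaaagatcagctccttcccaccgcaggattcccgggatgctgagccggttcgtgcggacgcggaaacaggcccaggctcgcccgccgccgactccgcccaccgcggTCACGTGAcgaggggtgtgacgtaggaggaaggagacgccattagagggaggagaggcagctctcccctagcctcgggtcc
The PU.1 motif was present in 3.20% and the CLEAR motif in 0.974% of 32851 promoters of this length, searched on both strands. The RefSeq table held promoters of 47 of the 57 tested genes. The other 10 were Rab2a, Rab4a, Rab7b, Rab18, Rab26, Rab30, Rab36, Rab37, Rab38 and Rab44. Of genes higher in cDC1 in all 3 genotypes, 12 had promoters there (17 promoters), and Rab32 alone held the PU.1 motif. Of those lower in all 3 genotypes, 7 had promoters (7 promoters), and Rab21 and Rab24 held the CLEAR motif. The motifs AP-1 (TGANTCA), CRE (TGACGTCA) and the ETS-IRF composite (GGAA, NN, GAAA) were present in 7.81%, 1.79% and 2.72% of all promoters. None of the promoters found for those genes held them. The ISRE motif (GAAA, NN, GAAA), in 3.44% of all promoters, was held by Rab19, among the higher genes, and Rab10os, among the lower ones. The ETS-IRF and ISRE motifs can overlap each other. These matches describe the letters of the windows.

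The targeted genes were read first. Flt3 averaged 364 ± 9.58 in Flt3 KO cDC1, against 2299 ± 47.6 in WT cDC1, and 361 ± 14.7 in Flt3 KO cDC2, against 1779 ± 53.2 in WT cDC2 (intensity, SD, n = 2 each). Flt3l averaged 124 ± 6.68 in Flt3L KO cDC1, against 113 ± 0.611 in WT cDC1 (not called), and 113 ± 6.27 in Flt3L KO cDC2, against 147 ± 3.24 in WT cDC2 (called lower by limma, adjusted p = 0.0267), so its probe set separates the Flt3L KO label in cDC2 and not in cDC1. Within each genotype, all 10 of 10 cDC1 markers were called higher and all 10 of 10 cDC2 markers lower in cDC1. Of 8 macrophage markers, 7 were called lower in Flt3L KO cDC1 than in Flt3L KO cDC2, and 5 lower and 1 higher in both Flt3 KO and WT cDC1. Their summed intensity was 592 to 601 in Flt3L KO cDC1, against 2391 to 2801 in Flt3L KO cDC2, 569 to 631 in Flt3 KO cDC1, against 1835 to 1853 in Flt3 KO cDC2, and 550.3 to 557 in WT cDC1, against 1602 to 1631 in WT cDC2. The part of these markers in the differences between cDC1 and cDC2 was not tested. Replicate 1 of WT cDC1 stood apart, with a lower quartile of 25.7, against 23.3 to 24.3 on the other arrays. The SD over genes of the log2 difference between replicates was 0.21 for WT cDC1 and 0.13 to 0.15 for the other groups.

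The first comparison asked which Rab genes distinguish cDC1 from cDC2, in each genotype. Rab7b and Rab32 stood far above the rest, both higher in cDC1. Rab7b, which acts between late endosomes and the trans-Golgi network, was 18.4-fold higher in Flt3L KO, 20.9-fold in Flt3 KO and 24.6-fold in WT cells. Rab32, a Rab of lysosome-related organelles, was 4.23-fold, 4.18-fold and 4.65-fold higher in cDC1 of the same 3 genotypes. Smaller differences ran both ways, and paralogs of 2 Rab subfamilies, Rab6 and Rab8, were called in opposite directions.

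A gene was called at a Benjamini-Hochberg adjusted p under 0.05 in limma, over all 14953 genes. In Flt3L KO cells 22 of 57 genes were called higher in cDC1, where 18.9% of all tested genes were, and 12 lower, where 15.9% were. In Flt3 KO cells 19 were called higher (19.1% of all genes) and 9 lower (16.4%). In WT cells 20 were called higher (21.0%) and 12 lower (18.4%). As shares of the 57 genes these are 38.6%, 33.3% and 35.1% called higher and 21.1%, 15.8% and 21.1% called lower. The median log2 difference of the 57 genes was 0.10 in Flt3L KO, 0.04 in Flt3 KO and 0.13 in WT cells, against 0.01, 0.00 and 0.07 over all tested genes. With the genotypes averaged, 27 genes were called higher (28.1% of all genes) and 12 lower (23.5%).

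**Figure D1:**
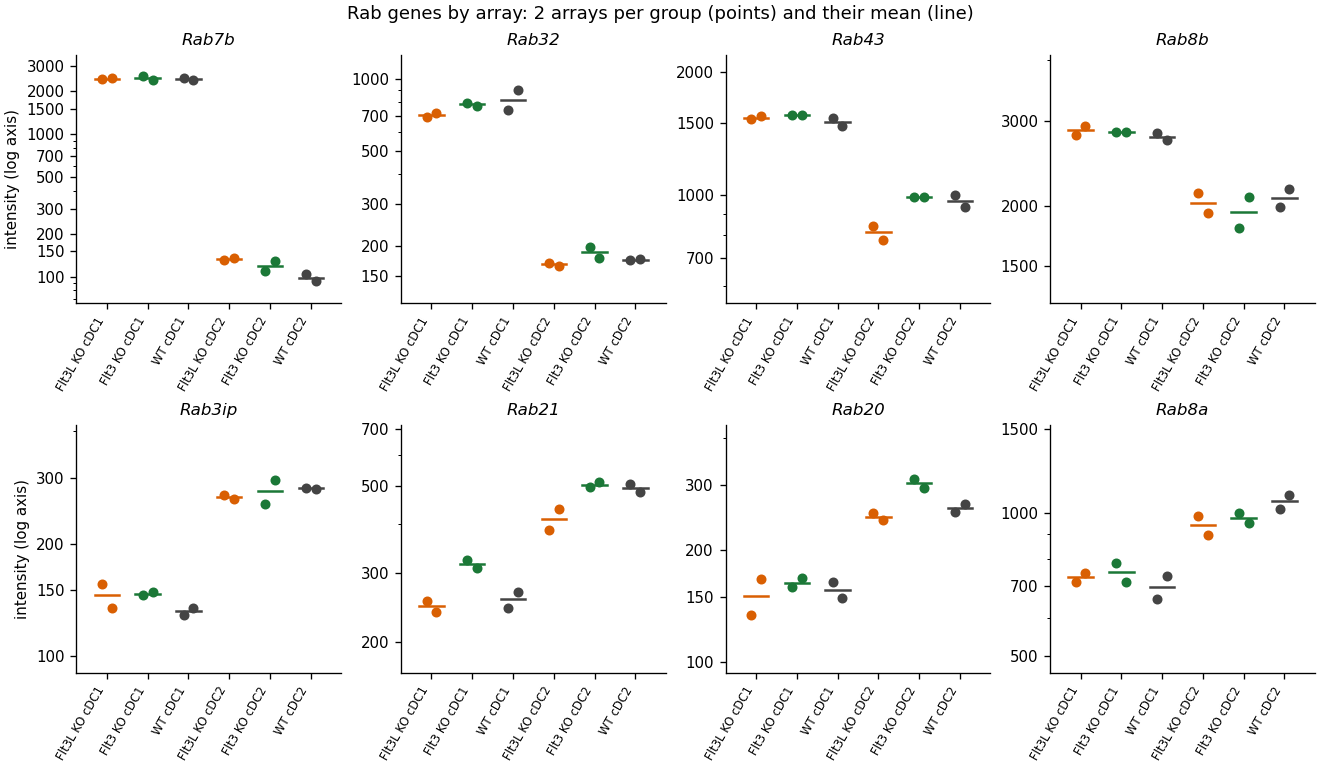
Intensity (log axis) of 8 Rab genes on each array, with Flt3L KO, Flt3 KO and WT cDC1 left of the same genotypes of cDC2, points for the 2 arrays of a group and a line for their mean. Rab7b, Rab32, Rab43 and Rab8b lie higher on all 6 cDC1 arrays than on any cDC2 array, and Rab3ip, Rab21, Rab20 and Rab8a lie lower.

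Rab7b had intensities of 2427 and 2450.3 in Flt3L KO cDC1, 2557 and 2393 in Flt3 KO cDC1, and 2451 and 2391 in WT cDC1. In cDC2 it had 130.0 and 135 in Flt3L KO, 109 and 129 in Flt3 KO, and 104 and 93.2 in WT cells. The cell types were far apart in every genotype, and the lowest cDC1 array exceeded the highest cDC2 array many times over. The log2 difference was 4.20 in Flt3L KO, 4.39 in Flt3 KO and 4.62 in WT cells (SE 0.09 each, limma adjusted p = 5.93e-12, 3.47e-12 and 2.16e-12).

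Rab32 had 696 and 720.5 in Flt3L KO cDC1, 796 and 774 in Flt3 KO cDC1, and 742 and 902 in WT cDC1. In cDC2 it had 170.2 and 165 in Flt3L KO, 199 and 178 in Flt3 KO, and 175 and 177 in WT cells. The cDC2 values were close together in all genotypes and the cDC1 values all lay above them. The promoter with the PU.1 motif printed above belongs to this gene. The log2 differences were 2.08, 2.06 and 2.22 in Flt3L KO, Flt3 KO and WT cells (SE 0.09 each, limma adjusted p = 2.36e-09, 2.27e-09 and 1.08e-09).

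Rab3ip, the Rab8 exchange factor also known as Rabin8, was the matched gene with the largest fall in cDC1. It had 156 and 135 in Flt3L KO cDC1, 145 and 149 in Flt3 KO cDC1, and 129 and 135 in WT cDC1, against 269 and 264 in Flt3L KO cDC2, 255 and 297 in Flt3 KO cDC2, and 282 and 281 in WT cDC2. No cDC1 array reached the lowest cDC2 array. Its log2 difference was -0.88 in Flt3L KO, -0.90 in Flt3 KO and -1.09 in WT cells (SE 0.09 each, limma adjusted p = 6.6e-06, 4.7e-06 and 7.35e-07).

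In all, 14 genes were called higher in cDC1 in each of the 3 genotypes, as were 13.3% of all tested genes. They were Rab1b, Rab2a, Rab5if, Rab6a, Rab7, Rab7b, Rab8b, Rab10, Rab11a, Rab13, Rab19, Rab32, Rab35 and Rab43. Another 8 were called lower in each genotype, as were 11.5% of all genes: Rab3ip, Rab6b, Rab8a, Rab10os, Rab20, Rab21, Rab24 and Rab37. Under every alternative processing and with any single array left out, 11 of the 14 and 6 of the 8 kept these calls. Rab2a, Rab13 and Rab35 lost a call in at least 1 alternative, as did Rab6b and Rab8a. All 6 cDC1 arrays lay above all 6 cDC2 arrays for 16 genes (17.6% of all genes) and below them for 10 (15.1%). Without replicate 1 of WT cDC1, 15 genes were called higher and 8 lower in all genotypes.

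**Figure D2:**
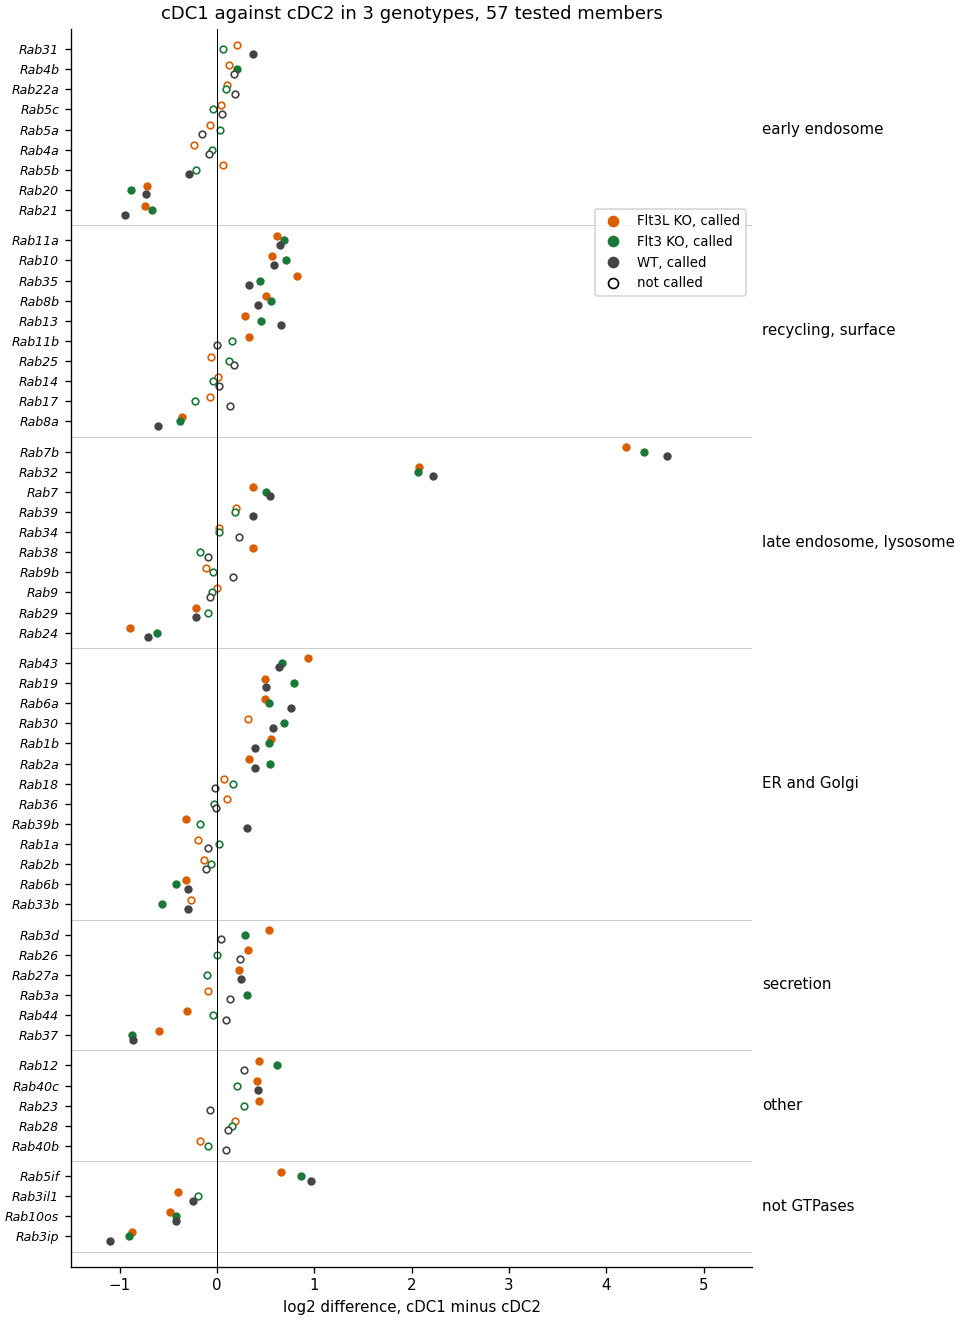
Log2 difference of cDC1 minus cDC2 for the 57 tested genes, grouped by role, with Flt3L KO, Flt3 KO and WT as separate points, filled where called. Rab7b and Rab32 stand apart at the right, and most other genes lie within 1 log2 unit of zero in all 3 genotypes.

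Across the 57 genes, the cDC1 to cDC2 differences of separate genotypes, which share no arrays, had a Pearson r of 0.953 between Flt3L KO and WT, 0.971 between Flt3 KO and WT, and 0.964 between Flt3L KO and Flt3 KO. Without Rab7b and Rab32, r was 0.845, 0.905 and 0.886 over 55 genes. These values describe genes on the same 12 arrays, which are not independent points.

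The late endosomal and lysosomal genes held both of the largest differences. Of 10 tested, 4 were called higher and 2 lower in Flt3L KO cDC1, 3 higher and 1 lower in Flt3 KO cDC1, and 4 higher and 2 lower in WT cDC1. As shares these are 40% and 20%, 30% and 10%, and 40% and 20%. Of all tested genes, the shares were 18.9% and 15.9%, 19.1% and 16.4%, and 21.0% and 18.4%. Rab7, which drives fusion of late endosomes with lysosomes, had a log2 difference of 0.37 in Flt3L KO, 0.50 in Flt3 KO and 0.55 in WT cells. Rab24, linked to autophagy, fell by 0.89, 0.61 and 0.70 in cDC1 of Flt3L KO, Flt3 KO and WT mice. Rab38, the closest relative of Rab32, was called higher in Flt3L KO cells at 0.37, and had -0.17 in Flt3 KO and -0.09 in WT cells, not called. Rab29 was called lower in Flt3L KO (-0.21) and WT cells (-0.21), and Rab39 was called higher in WT cells (0.37). Rab29 lost its Flt3L KO call when any of the 4 arrays compared was left out (limma adjusted p = 0.0997 to 0.128), and its WT call without replicate 1 of WT cDC1 or either WT cDC2 array (0.0860 to 0.132). Rab38 lost its call without replicate 1 of Flt3L KO cDC1 (0.29, 0.116) or replicate 1 of Flt3L KO cDC2 (0.36, 0.0638). Rab9, Rab9b and Rab34 were called in no genotype.

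Among 9 early endosomal and sorting Rabs, Rab20 and Rab21 were called lower in cDC1 of each genotype. Rab21, a Rab of integrin traffic, ranged from 238 to 324 over the 6 cDC1 arrays with a median of 262, and from 386 to 512 over the 6 cDC2 arrays with a median of 489. Its log2 difference was -0.74 in Flt3L KO, -0.67 in Flt3 KO and -0.94 in WT cells. Rab20, which takes part in phagosome maturation, had medians of 162 in cDC1 and 259 in cDC2, with differences of -0.72, -0.88 and -0.73 in the same genotypes. The Rab5 genes, which organise the early endosome, were mostly not called. Rab5a and Rab5c were called in no genotype, and Rab5b was called in WT cells alone, at -0.28. Rab31 was called higher in WT cells (0.37) and Rab4b in Flt3 KO cells (0.21), while Rab4a and Rab22a were called in no genotype. The Rab31 call was lost without replicate 2 of WT cDC1 (limma adjusted p = 0.0504) or replicate 1 of WT cDC2 (0.0647). The Rab5b call was lost without replicate 1 of WT cDC1 or either WT cDC2 array (0.110 to 0.150), and the Rab4b call under 7 alternatives, including quantile normalization (0.0615), no filter on dim genes (0.0545) and each of the 4 arrays compared left out (0.0813 to 0.142).

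Of 10 tested Rabs of recycling and delivery to the surface, 6 were called higher and 1 lower in Flt3L KO cDC1, and 5 higher and 1 lower in both Flt3 KO and WT cDC1. Called higher were thus 60%, 50% and 50% in Flt3L KO, Flt3 KO and WT, against 18.9%, 19.1% and 21.0% of all genes. Called lower were 10% in each, against 15.9%, 16.4% and 18.4%. Rab11a, the Rab of the recycling endosome, had log2 differences of 0.62, 0.69 and 0.65 in Flt3L KO, Flt3 KO and WT cells. Rab10, which brings receptors and transporters to the surface, had 0.57, 0.71 and 0.58. Rab35, a Rab of fast recycling, had 0.82 in Flt3L KO, 0.44 in Flt3 KO and 0.33 in WT cells, and its WT call was lost without replicate 2 of WT cDC1 (0.29, limma adjusted p = 0.097) and without replicate 2 of WT cDC2 (0.20, adjusted p = 0.263). Rab14, Rab17 and Rab25 were called in no genotype, and Rab11b was called in Flt3L KO cells (0.33), with 0.16 in Flt3 KO and -0.00 in WT cells. That call was lost without replicate 2 of Flt3L KO cDC1 (0.25, limma adjusted p = 0.185) or replicate 2 of Flt3L KO cDC2 (0.21, 0.239). A second, dimmer probe set of Rab11b was called higher in each genotype, with 0.54, 0.48 and 0.48. Rab13 had 0.29, 0.45 and 0.66 in Flt3L KO, Flt3 KO and WT cells.

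Rab8a and Rab8b, close paralogs that serve delivery to the plasma membrane, were called in opposite directions. Rab8b ranged from 2729 to 2927 over the cDC1 arrays, with a median of 2831, and from 1798 to 2162 over the cDC2 arrays, with a median of 2035. Rab8a ranged from 657 to 784 in cDC1, with a median of 725, and from 898 to 1092 in cDC2, with a median of 991. Neither gene overlapped between the cell types. The log2 differences in Flt3L KO, Flt3 KO and WT cells were 0.50, 0.55 and 0.42 for Rab8b and -0.36, -0.38 and -0.60 for Rab8a. Whether the probe sets of such close paralogs cross-hybridise was not tested. Without replicate 1 of Flt3L KO cDC2, Rab8a in Flt3L KO cells had -0.30 (limma adjusted p = 0.0578).

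The ER and Golgi Rabs, 13 of them tested, had 5 genes called higher and 2 lower in Flt3L KO cDC1, 6 and 2 in Flt3 KO cDC1, and 7 and 2 in WT cDC1. Called higher were thus 38.5%, 46.2% and 53.8% in Flt3L KO, Flt3 KO and WT, against 18.9%, 19.1% and 21.0% of all genes. Called lower were 15.4% in each, against 15.9%, 16.4% and 18.4%. Rab43, which in mice takes part in cross-presentation by cDC1, ranged from 1474 to 1570.0 over the cDC1 arrays, with a median of 1549, and from 778 to 1001 over the cDC2 arrays, with a median of 960.1. Its difference was 0.93 in Flt3L KO, 0.67 in Flt3 KO and 0.64 in WT cells. Rab6a, of retrograde transport to and through the Golgi, had 0.49, 0.54 and 0.76 in the same genotypes, and its paralog Rab6b had -0.32, -0.42 and -0.30. The Rab6b calls were lost in some fits without 1 array, and the WT difference was -0.14 without replicate 2 of WT cDC1. Rab1b, of transport from ER to Golgi, had 0.56, 0.53 and 0.39, while its paralog Rab1a was called in no genotype. Rab2a had 0.33, 0.55 and 0.39, with adjusted p-values of 0.0322, 0.00141 and 0.012. A second, dimmer probe set of Rab2a had 0.06, 0.40 and 0.21 and was called in Flt3 KO cells. Rab2b, Rab18 and Rab36 were called in no genotype. Rab19 had 0.49, 0.79 and 0.50. Rab30 was called higher in Flt3 KO (0.69) and WT cells (0.58), and Rab33b, which serves the Golgi and autophagy, lower in the same genotypes (-0.57 and -0.30). The WT call of Rab33b was lost under 13 alternatives, among them quantile normalization (limma adjusted p = 0.0848), no filter on dim genes (0.0620) and the replicate number as a block (0.0571), and the difference was -0.18 (0.252) without replicate 2 of WT cDC1 and -0.23 (0.230) without replicate 1 of WT cDC2.

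Rab39b, a Golgi Rab studied mostly in neurons, was the only one of the 57 genes called in opposite directions in different genotypes, as were 0.147% of all tested genes. It had 43.4 and 47.2 in Flt3L KO cDC1, 44.1 and 41.9 in Flt3 KO cDC1, and 55.3 and 51.8 in WT cDC1. In cDC2 it had 54.3 and 58.8 in Flt3L KO, 48.6 and 48.4 in Flt3 KO, and 47.2 and 39.6 in WT cells. The cDC1 arrays lay below the cDC2 arrays in both knockouts and above them in WT, and the cell types overlapped when genotypes were pooled. The cDC1 to cDC2 difference was -0.32 in Flt3L KO, -0.17 in Flt3 KO (not called) and 0.31 in WT cells (SE 0.09 each, limma adjusted p = 0.0168, 0.182 and 0.0199). The difference between the Flt3L KO effects of the cell types, -0.63 (SE 0.13), missed the threshold (limma adjusted p = 0.0627). It passed without replicate 2 of WT cDC1, at -0.67. That fit leaves replicate 1, which stood apart, as the only WT cDC1 array. Both opposite calls were lost in some fits without 1 array. The WT call was lost without replicate 1 of WT cDC1 (0.26) or replicate 2 of WT cDC2 (0.18, adjusted p = 0.226), and with only the WT arrays in the fit (0.0766). The Flt3L KO call was lost without replicate 1 of Flt3L KO cDC1 (-0.26, 0.131) or replicate 2 of Flt3L KO cDC2 (-0.26, 0.126).

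Of 6 tested Rabs of regulated secretion, Rab37 alone was called in the same direction in every genotype, with log2 differences of -0.60 in Flt3L KO, -0.88 in Flt3 KO and -0.86 in WT cells. Rab27a, which docks secretory lysosomes and related granules, was called higher in cDC1 of Flt3L KO (0.22) and WT mice (0.25) and had -0.10 in Flt3 KO cells. Rab3d, a Rab of secretory granules, was called higher in Flt3L KO (0.53) and Flt3 KO cells (0.29). Rab26 was called higher (0.32) and Rab44 lower (-0.31) in Flt3L KO cells, and Rab3a higher in Flt3 KO cells (0.31). Most of these calls were lost in some fit without 1 array. Such a fit has a larger standard error, so a lost call does not show that the array stood apart. Rab27a lost its Flt3L KO call without replicate 1 of Flt3L KO cDC1 or either Flt3L KO cDC2 array (limma adjusted p = 0.0876 to 0.170), and its WT call without replicate 2 of WT cDC1 (0.0533) or of WT cDC2 (0.0880). Rab26 had 0.19 without replicate 1 of Flt3L KO cDC1 (0.295) and 0.23 without replicate 2 of Flt3L KO cDC2 (0.236), and Rab44 lost its call when any of the 4 arrays compared was left out (0.0578 to 0.0787). In Flt3 KO cells, Rab3d lost its call without replicate 2 of cDC1 (0.20, 0.227) or either cDC2 array (0.148 and 0.0517), and Rab3a without replicate 2 of cDC2 (0.25, 0.0759).

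Among the 5 Rabs of other roles, Rab40c was called higher in Flt3L KO (0.41) and WT cells (0.42), Rab12 in Flt3L KO (0.43) and Flt3 KO cells (0.61), and Rab23 in Flt3L KO cells (0.43). The Flt3L KO call of Rab12 was lost when any of the 4 arrays compared was left out (limma adjusted p = 0.0868 to 0.122). Rab23 had 0.26 without replicate 1 of Flt3L KO cDC1 (adjusted p = 0.178) and 0.41 without replicate 2 of Flt3L KO cDC2 (0.0759). Rab28 and Rab40b were called in no genotype. Of the matched genes that are not GTPases, Rab5if was higher in cDC1, at 0.66 in Flt3L KO, 0.87 in Flt3 KO and 0.97 in WT cells, and Rab10os was lower, at -0.48, -0.42 and -0.42. Rab3il1 was called lower in Flt3L KO (-0.40) and WT cells (-0.25), and its WT call was lost under 7 alternatives, including no filter on dim genes (limma adjusted p = 0.0535), the trended prior (0.0547) and each of the 4 arrays compared left out (0.0654 to 0.127).

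Genes that act on Rabs were also compared between the cell types. Shares of all tested genes called higher and lower in cDC1 were 21.0% and 18.4% in WT cells. They were 18.9% and 15.9% in Flt3L KO and 19.1% and 16.4% in Flt3 KO cells. In WT cells, 9 of 39 tested exchange factors were called higher and 16 lower in cDC1 (23.1% and 41.0%). In Flt3L KO cells 11 and 14 were (28.2% and 35.9%), and in Flt3 KO cells 12 and 13 (30.8% and 33.3%). This list includes Rab3ip and Rab3il1. Rin2, an activator of Rab5, had intensities of 244 and 216 in Flt3L KO cDC1, 226 and 209.5 in Flt3 KO cDC1, and 189 and 203 in WT cDC1, against 1150.0 and 1219 in Flt3L KO cDC2, 1331 and 1431 in Flt3 KO cDC2, and 1317 and 1262 in WT cDC2. It was thus far lower on every cDC1 array, with log2 differences of -2.37, -2.67 and -2.72 in Flt3L KO, Flt3 KO and WT cells. Dennd3, an activator of Rab12, had differences of -1.86, -2.08 and -2.20 in Flt3L KO, Flt3 KO and WT cells. Dennd1b, an activator of Rab35, had 1.24 in Flt3L KO, 1.41 in Flt3 KO and 0.97 in WT cells, and Dennd2d had 1.17, 1.54 and 1.41, so both were higher in cDC1 of each genotype.

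Of 36 GTPase-activating proteins, which switch Rabs off, 7 were called higher and 8 lower in Flt3L KO cDC1, 6 and 7 in Flt3 KO cDC1, and 4 and 13 in WT cDC1. As shares these are 19.4% and 22.2%, 16.7% and 19.4%, and 11.1% and 36.1%, beside the shares of all genes given above. Tbc1d4, known for restraining Rab10 in insulin-responsive cells, had log2 differences of -1.42 in Flt3L KO, -1.45 in Flt3 KO and -1.55 in WT cells. Usp6nl, which acts on Rab5, had -1.07, -1.05 and -1.44. Rabgap1l went the other way, with 1.35, 1.51 and 1.17. Of 41 effectors, 16 were called higher and 2 lower in Flt3L KO cDC1, 12 and 2 in Flt3 KO cDC1, and 13 and 5 in WT cDC1. As shares these are 39.0% and 4.88%, 29.3% and 4.88%, and 31.7% and 12.2% of the effectors. Inpp5b, a phosphoinositide phosphatase that binds Rab5, led them with 1.39, 1.27 and 1.20.

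Of 7 genes for prenylation of Rabs and their removal from membranes, 2 were called higher and 2 lower in each genotype (28.6% each way). Chm, the escort protein that presents new Rabs for prenylation, had -0.58, -0.52 and -0.81 in Flt3L KO, Flt3 KO and WT cells, and its relative Chml had 0.29, 0.30 and 0.27. Of 10 genes listed with the HOPS and CORVET tethers, which bind Rab7 and Rab5, Vps33b and Vipas39 are not subunits of these complexes. Among the 10, 3 were called higher and 1 lower in Flt3L KO cDC1, 4 and 1 in Flt3 KO cDC1, and 3 and 1 in WT cDC1. As shares these are 30% and 10%, 40% and 10%, and 30% and 10%. Vipas39, the partner of Vps33b, had 0.73, 0.77 and 0.68. The counts of all lists for WT cells are in the plot of calls by role.

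**Figure D3:**
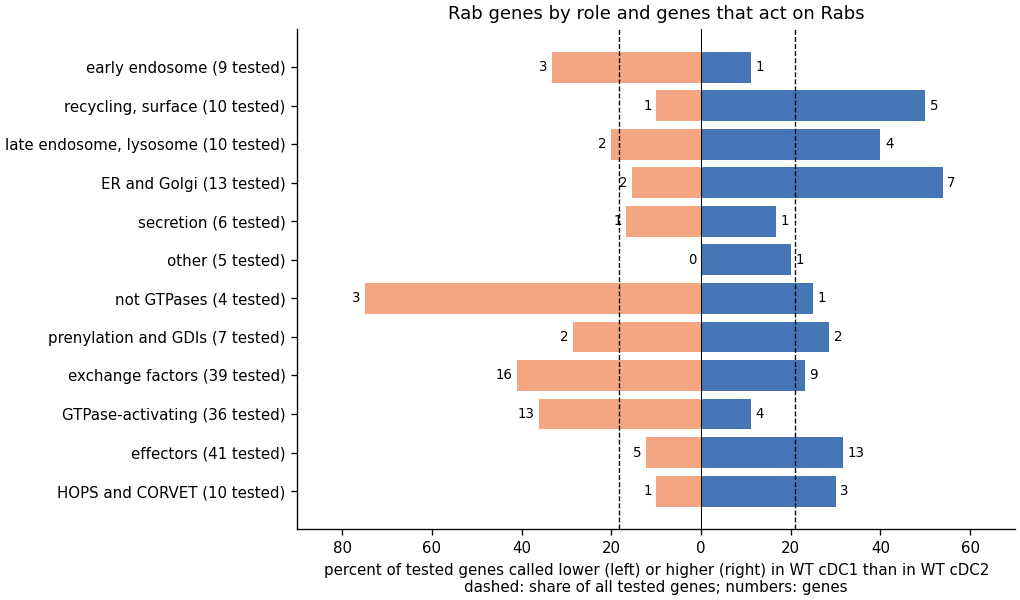
Percent of tested genes called lower (left) or higher (right) in WT cDC1 than in WT cDC2, for Rab genes by role and for lists of genes that act on Rabs, with gene counts at the bars and dashed lines at the shares of all tested genes, 18.4% and 21.0%. Exchange factors and GTPase-activating proteins have more genes called lower than higher (16 against 9 and 13 against 4), and effectors more called higher (13 against 5).

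The second set of comparisons asked how loss of the ligand or the receptor changes these genes within a cell type. Few of them were called. With so few arrays in each group, a gene that was not called cannot be taken as unchanged. The only call within a cell type was Rab7b, higher in Flt3L KO cDC2 than in WT cDC2. Averaged over both cell types, Rab30 was called lower and Rab27a higher in Flt3L KO cells. The Flt3L KO and Flt3 KO comparisons share the WT arrays, and the comparison of the knockouts shares theirs, so their values are given side by side without counting them as separate evidence.

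In Flt3L KO cDC1 against WT cDC1, 0 of 57 genes were called by limma, 12 had an unadjusted p under 0.05 (17.1% of all genes did), and 1.19% of all genes were called. In Flt3L KO cDC2 against WT cDC2, 1 was called higher and 0 lower, where 1.95% of all genes were called and 1.04% called higher, and 9 had an unadjusted p under 0.05 (14.6% of all genes). In Flt3 KO cDC1 against WT cDC1, limma called 0 (0.0803% of all genes), with 5 at an unadjusted p under 0.05 (12.5% of all genes). In Flt3 KO cDC2 against WT cDC2, it called 0 (0.107%), with 7 unadjusted (7.28%). Between Flt3L KO and Flt3 KO, it called 0 in cDC1 (0.883%), with 9 unadjusted (15.8%), and 0 in cDC2 (0.93%), with 8 unadjusted (12.7%). The standard error of such a difference had a median of 0.0911 over these genes, and the differences ranged from -0.60 to 0.43 over all 6 comparisons.

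**Figure D4:**
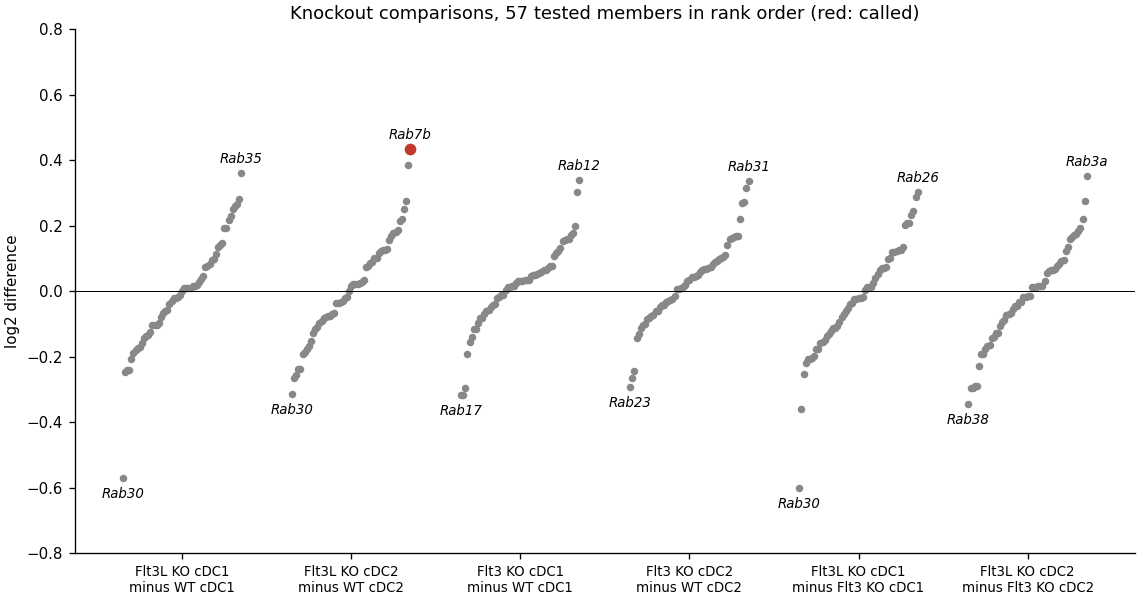
Log2 differences of the 57 tested genes in 6 knockout comparisons, in rank order within each, grey where not called and red where called, with the lowest and highest gene named. The single red point is Rab7b in Flt3L KO cDC2 minus WT cDC2, at 0.43, and Rab30 is lowest in Flt3L KO cDC1 against both WT and Flt3 KO cDC1.

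Rab7b in cDC2 had 130.0 and 135 in Flt3L KO and 109 and 129 in Flt3 KO, against 104 and 93.2 in WT mice. Both Flt3L KO arrays lay above both WT arrays, at a level still far under that of cDC1. The Flt3L KO difference was 0.43 (SE 0.09, limma adjusted p = 0.0308) and the Flt3 KO difference 0.27 (SE 0.09, adjusted p = 0.474). The call was lost when any of the arrays compared was left out: it had 0.51 without replicate 1 of WT cDC2 (adjusted p = 0.0843), 0.36 without replicate 2 of WT cDC2 (0.271), 0.46 without replicate 1 of Flt3L KO cDC2 (0.126) and 0.40 without replicate 2 of Flt3L KO cDC2 (0.159). In cDC1 the Flt3L KO difference of Rab7b was 0.01, and the difference between the cell types' effects, -0.42 (SE 0.13), was not called (adjusted p = 0.177).

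Markers of other cells moved in the same cDC2 comparison. Of 8 macrophage markers, 5 were called higher and 1 lower in Flt3L KO cDC2, and their summed intensity was 2391 to 2801, against 1602 to 1631 in WT cDC2. Of the 5 monocyte markers tested, 2 were called higher, and the sum was 6441 to 7502, against 5522 to 5527. Of 10 cDC1 markers, Irf8 and Cadm1 were called higher and 0 lower, and the sum of all 10 was 5859 to 5918, against 6148 to 6322. Of 10 cDC2 markers, 0 were called higher and 2 lower, Clec4a4 and Cd209a, and the sum was 8094 to 8162, against 9743 to 9788. The defining cDC1 genes Xcr1 and Clec9a had log2 differences of 0.00 and -0.21 and were not called. The part of these cells in the Rab7b result was not tested, and in sorted bulk samples fewer cells of a type and less RNA per cell cannot be told apart.

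Rab30, a Golgi Rab, had 166 and 213 in Flt3L KO cDC1 and 269 and 302 in Flt3 KO cDC1, against 256 and 305 in WT cDC1. In cDC2 it had 136 and 168 in Flt3L KO and 182 and 172 in Flt3 KO, against 181 and 194 in WT. In each cell type both Flt3L KO arrays were the lowest, with no overlap with WT or Flt3 KO. Averaged over the cell types, with cDC1 and cDC2 arrays taken as independent, the Flt3L KO difference was -0.44 (SE 0.09, limma adjusted p = 0.025), in a comparison that called 3.0% of all genes, 1.33% lower and 1.67% higher, and 1 of the 57 genes each way. There, 9 of the 57 had an unadjusted p under 0.05, as did 17.3% of all genes. Within cDC1 it was -0.57 (SE 0.13, adjusted p = 0.0605) against WT and -0.60 (SE 0.13, adjusted p = 0.059) against Flt3 KO. Within cDC2 it was -0.31 against WT. The averaged call was lost without replicate 2 of WT cDC1 (-0.38, adjusted p = 0.0564), replicate 1 of Flt3L KO cDC1 (-0.35, 0.102), replicate 1 or 2 of WT cDC2 (-0.47 and -0.42, 0.0685 and 0.103) or replicate 1 of Flt3L KO cDC2 (-0.37, 0.107). It was also lost, at 0.0564, when the Flt3 KO arrays were kept out of the fit.

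Rab27a had 157 and 149 in Flt3L KO cDC1 and 130.3 and 129 in Flt3 KO cDC1, against 130.5 and 137 in WT cDC1. In cDC2 it had 130.2 and 131 in Flt3L KO and 138 and 142 in Flt3 KO, against 114 and 111 in WT. The Flt3L KO arrays lay above the WT arrays in both cell types, and the Flt3 KO arrays did so in cDC2 only. The averaged Flt3L KO difference was 0.21 (SE 0.05, limma adjusted p = 0.0487). It lost its call when any 1 of 11 of the 12 arrays was left out, at 0.19 to 0.23, the exception being replicate 2 of WT cDC1. The call was also lost with no filter on dim genes (limma adjusted p = 0.0743), the replicate number as a block (0.0705) and only the arrays compared (0.104). With the trended prior it was lost too (0.0522), and Rab7b was called in its place. The Flt3 KO difference in cDC2 was 0.32 (SE 0.07, adjusted p = 0.201).

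**Figure D5:**
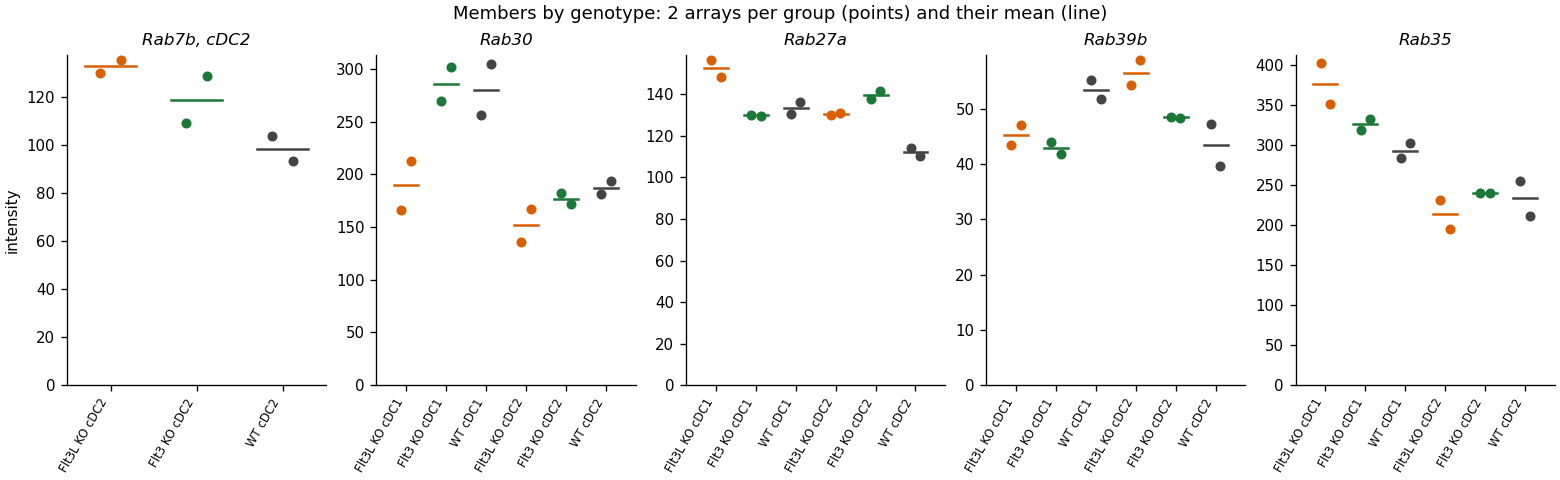
Intensity of Rab7b in cDC2 and of Rab30, Rab27a, Rab39b and Rab35 in both cell types, by genotype, with points for the 2 arrays of a group, a line for their mean and axes from 0. Flt3L KO arrays are highest for Rab7b in cDC2 and lowest for Rab30 in each cell type, and Rab39b is ordered differently by genotype in cDC1 and cDC2.

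Other genes with the smallest p-values in these comparisons did not pass. They were picked by p, so arrays in separate ranges are no further support for a difference. In cDC1, Rab35 had 402 and 351 in Flt3L KO and 318 and 333 in Flt3 KO, against 283 and 302 in WT cells, and the Flt3L KO difference was 0.36 (SE 0.11, limma adjusted p = 0.121). The Flt3L KO arrays did not overlap either of the other genotypes. Rab13 in cDC1 had 39.8 and 40.9 in Flt3L KO and 44.0 and 42.7 in Flt3 KO, against 49.0 and 46.7 in WT cells, with a Flt3L KO difference of -0.25 (SE 0.07, adjusted p = 0.123). Its values were in separate ranges in the 3 genotypes.

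In Flt3 KO cDC1, Rab6a had 223 and 231, against 286 and 271 in WT cDC1, a difference of -0.30 (SE 0.08, limma adjusted p = 0.246). Rab21 had 324 and 309 in Flt3 KO cDC1, against 245 and 269 in WT cDC1, a difference of 0.30 (SE 0.09, adjusted p = 0.249). The arrays of the genotypes did not overlap for either gene, nor for Rab39b, whose difference was -0.32 (adjusted p = 0.264). These genes were named for their small p-values, so this separation is no further support. Rab12, Rab17 and Rab21 were called in this comparison without replicate 2 of WT cDC1, with Rab21 at 0.37. That fit leaves replicate 1, which stood apart, as the only WT cDC1 array. Without replicate 2, Rab12 was also called in Flt3L KO cDC1 against WT cDC1. Rab21 had 255 and 238 in Flt3L KO cDC1, a difference between the knockouts of -0.36 that was not called (SE 0.09, limma adjusted p = 0.0725). It was called, at the same value, without either WT cDC1 array.

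In cDC2, Rab31 had 533 and 560.3 in Flt3 KO, against 417 and 449 in WT cells, a difference of 0.34 (SE 0.09, limma adjusted p = 0.324). Rab3a had 26.3 and 24.1 in Flt3 KO cDC2, against 31.3 and 29.2 in WT cDC2, a difference of -0.26 (SE 0.08, adjusted p = 0.393). Its mean over all arrays lay just over the limit for dim genes. Flt3L KO cDC2 had 32.6 and 31.6, a difference between the knockouts of 0.35 that was not called (SE 0.08, limma adjusted p = 0.0643). Rab3a was called, at the same value, without either WT cDC1 array. Rab43 had 842 and 778 in Flt3L KO cDC2 and 990.0 and 987 in Flt3 KO cDC2, against 1001 and 933 in WT cDC2. The Flt3L KO arrays were the lowest, with a difference from Flt3 KO of -0.29 (SE 0.08, adjusted p = 0.106). Rab21 had 386 and 436 in Flt3L KO cDC2 and 496 and 512 in Flt3 KO cDC2, against 506 and 482 in WT cDC2, with a difference between the knockouts of -0.30 (SE 0.09, adjusted p = 0.147).

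Whether a knockout effect differs between the cell types was tested by the interaction term. For the Flt3L KO effect limma called 0 of 57 genes, where 0.495% of all genes were called, with 13 at an unadjusted p under 0.05 (14.8% of all genes). For the Flt3 KO effect it called 0, as it did of all genes (0.0%), with 5 unadjusted (8.97%). Rab39b had the smallest p in both, with -0.63 for the Flt3L KO effect, described with its cell type difference, and -0.48 for the Flt3 KO effect (SE 0.13, adjusted p = 0.458). Rab3d had 93.0 and 89.8 in Flt3L KO cDC1, against 77.4 and 76.2 in WT cDC1, and 68.7 and 58.0 in Flt3L KO cDC2, against 74.0 and 74.8 in WT cDC2. Its arrays were higher than WT in cDC1 and lower in cDC2, a difference of effects of 0.49 (SE 0.13, adjusted p = 0.133). Rab13 had -0.37 for the Flt3L KO effect (adjusted p = 0.15). For the Flt3 KO effect, Rab27a had -0.35 and Rab17 -0.37 (adjusted p = 0.458 and 0.514). Rab17 had 42.6 and 41.7 in Flt3 KO cDC1, against 56.5 and 48.8 in WT cDC1, while its Flt3 KO and WT arrays overlapped in cDC2, at 44.9 and 54.3, against 49.5 and 46.0.

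Averaged over the cell types, the Flt3 KO comparison called 0 of 57 genes (0.254% of all genes) by limma, with 7 at an unadjusted p under 0.05 (10.2% of all genes). The smallest p-values belonged to Rab6a at -0.18, Rab3a at -0.17 and Rab10os at 0.17 (SE 0.06 each, adjusted p = 0.316, 0.316 and 0.349). Rab10os had 178 and 192 in Flt3 KO cDC1, against 171 and 158 in WT cDC1, and 252 and 243 in Flt3 KO cDC2, against 228 and 213 in WT cDC2. Rab6a had 146 and 167 in Flt3 KO cDC2, against 165 and 163 in WT cDC2, and Rab3a had 31.5 and 31.0 in Flt3 KO cDC1, against 34.5 and 31.7 in WT cDC1.

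Some genes that act on Rabs were called in knockout comparisons, where 39 exchange factors, 36 GTPase-activating proteins and 41 effectors were among those tested. In Flt3L KO against WT cDC1, limma called 1 of the 36 GTPase-activating proteins (2.78%), where 1.19% of all genes were called. In Flt3L KO against Flt3 KO cDC2 it called 0.93% of all genes, and in the averaged Flt3 KO comparison 0.254%. Tbc1d30, a GTPase-activating protein for Rab8, had 77.1 and 78.6 in Flt3L KO cDC1 and 70.3 and 70.8 in Flt3 KO cDC1, against 55.4 and 57.2 in WT cDC1. In cDC2 it had 106 and 112 in Flt3L KO and 167 and 159 in Flt3 KO, against 131 and 137 in WT cells. The Flt3L KO arrays were thus the highest in cDC1 and the lowest in cDC2. It was called at 0.47 in Flt3L KO against WT cDC1 (SE 0.07, limma adjusted p = 0.0108) and at -0.58 in Flt3L KO against Flt3 KO cDC2 (SE 0.07, adjusted p = 0.00362). The first call was lost without replicate 1 or 2 of Flt3L KO cDC1 (0.48 and 0.45, adjusted p = 0.0928 and 0.0719), and the other without replicate 1 of Flt3L KO cDC2 (-0.54, 0.0641). Averaged over the cell types, Flt3 KO cells had 0.31 (adjusted p = 0.0285), a call lost in 7 of 12 fits that left out an array, with the replicate number as a block (adjusted p = 0.0506) and with only the arrays compared (0.0774). With only the arrays compared, the Flt3L KO call in cDC1 was lost too (0.200).

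In Flt3L KO against WT cDC2, Tbc1d15, which acts on Rab7, was called at 0.36 (SE 0.07, limma adjusted p = 0.0232), Tbc1d9 at -0.36 (SE 0.07, adjusted p = 0.0256) and Dennd1b at -0.40 (SE 0.08, adjusted p = 0.0308). Each of these calls was lost when any of the 4 arrays compared was left out, with adjusted p-values up to 0.185, 0.211 and 0.228. Flt3L KO against WT cDC2 called 1.95% of all genes, and the Flt3L KO average over cell types called 3.0%. In that average, the Rab5 effector Rabep1 was called in Flt3L KO cells at -0.31, Dennd1b at -0.26, Plekhm2 at 0.25 and Tbc1d15 at 0.21 (limma adjusted p = 0.0165, 0.0338, 0.0456 and 0.0425). These averaged calls were lost in 4, 9, 9 and 11 of 12 fits that left out an array. Those of Plekhm2 and Tbc1d15 were also lost with the replicate number as a block (limma adjusted p = 0.0656 and 0.0625), with quantile normalization (0.0808 and 0.0538), with no filter on dim genes (0.0672 and 0.0666) and with only the arrays compared (0.0833 and 0.0946), where Dennd1b had 0.0504.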

How the data were processed

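RNA of splenic cDC1 and cDC2 from Flt3L KO, Flt3 KO and WT mice was read on 12 GeneChip arrays, 2 in each of 6 groups taken from the labels. The deposited table holds the authors' linear intensity per probe set and array, for 30177 probe sets. The sources used here do not give their summarisation or normalization method. Array medians lay between 59.0 and 63.0, and precision is limited by having 2 arrays a group. Equal replicate numbers are not stated to share animals or days.

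Genes came from the 21789 probe sets with 1 gene symbol (1621 had several and 6767 were not listed). The probe set with the highest mean stood for a gene. log2 intensities were fitted with limma 3.58.1 in R 4.3.3, with 1 mean per group, 6 residual degrees of freedom and Benjamini-Hochberg adjustment within each comparison over the 14953 genes left after the dimmest 0.25 of 19938 was removed. Calls used an adjusted p under 0.05. Fold changes of dim genes on intensities with background understate the change. The fit was tested on simulated data.

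The genes, role lists and markers were chosen with earlier results of these data known. Values on every array were planned for genes called past a log2 difference of 1, genes called in a knockout comparison and, where none was called, the 3 with the smallest p, with up to 4 called genes of each list of regulators. Alternatives were quantile normalization, other filters on dim genes, averaging the probe sets of a gene, a variance prior that was trended and robust, the replicate number as a block, only the arrays compared, and leaving out each array. Tested markers of B, T, NK and plasmacytoid dendritic cells, neutrophils, erythroid cells and cDC in general were not called by limma in Flt3L KO against WT cDC2. Only 3 of 5 markers each of B cells, T cells and neutrophils were tested, and 1 of 5 each of NK and erythroid cells. The rest had no value or were too dim to test, so these cells were checked only in part. No marker with a value was at 0, on intensities with background.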

Additional observations from a re-analysis of the deposited data

Results flagged for a closer look

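2 genes that act on Rabs were called by the interaction term for a Flt3L KO effect that differed between cDC1 and cDC2. Among the genes tested were 39 exchange factors, 36 GTPase-activating proteins and 41 effectors, and 0.495% of all genes were called. Tbc1d30, a GTPase-activating protein for Rab8, was above WT on both Flt3L KO cDC1 arrays and below WT on both Flt3L KO cDC2 arrays. The difference of the effects was 0.76 on the log2 scale (SE 0.10, limma adjusted p = 0.00693), and it kept its call under each alternative run, with adjusted p-values up to 0.0489. Rab11fip4, an effector of Rab11, had 336 and 350.0 in Flt3L KO cDC1, against 253 and 281 in WT cDC1, and 147 and 127 in Flt3L KO cDC2, against 163 and 173 in WT cDC2. Its arrays were likewise above WT in cDC1 and below WT in cDC2, and the difference of the effects was 0.66 (SE 0.13, limma adjusted p = 0.0448). This call was lost under 13 alternatives, with values of 0.55 to 0.70 and adjusted p-values up to 0.177, 10 of them fits without 1 array. With 2 arrays per group, no single array could be tested as standing apart for one gene.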

How the results depend on the processing

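No called difference changed sign under any alternative. Leaving out each array in turn gave 25 to 35 called genes in Flt3L KO cDC1 against cDC2, 25 to 29 in Flt3 KO, 25 to 32 in WT and 34 to 40 with genotypes averaged. It gave 12 to 15 genes higher and 6 to 8 lower in all genotypes.

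The knockout counts moved more, and the cause was not tested. Fits without replicate 2 of WT cDC1 leave replicate 1, which stood apart, as the only array of that group. Flt3L KO against WT cDC1 had 1 call (Rab30) with the stricter filter on dim genes, the trended prior or the replicate block, and 0 to 1 without 1 array. Flt3L KO against WT cDC2 had 2 with the trended prior (Rab43 added), and 0 to 2 without 1 array: 2 without replicate 1 or 2 of WT cDC1 (Rab39b added) and 0 when any array compared was left out. Flt3L KO against Flt3 KO cDC1 had 2 (Rab21, Rab30) with the stricter filter or the trended prior, 1 (Rab30) with the replicate block, and 0 to 2 without 1 array. The same comparison in cDC2 had 1 (Rab43) with the trended prior and 0 to 1 without 1 array (Rab3a, without either WT cDC1 array). The Flt3L KO effect, cDC1 minus cDC2, had 1 (Rab39b) with the trended prior and 0 to 2 without 1 array (Rab39b and Rab44, without replicate 2 of WT cDC1). The Flt3L KO average over cell types had 1 (Rab30) with no filter or the replicate block, 0 with only the arrays compared, and 0 to 2 without 1 array. Flt3 KO against WT cDC1 had 0 to 3 without 1 array, with 3 without replicate 2 of WT cDC1.

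Deviations of arrays with the same replicate number correlated at -0.199 to 0.172 over 14953 genes. The values were 0.146, 0.0885 and 0.159 between cDC1 and cDC2 of Flt3L KO, Flt3 KO and WT mice, 0.0375 to 0.172 between knockout groups, and below 0 between each knockout group and each WT group. Not every pair was above 0.1 and the labels name no shared animal or day, so the arrays were not taken as paired. The replicate block fits the same shift in all groups, so it could not test a pairing of cDC1 and cDC2 within a genotype. With the replicate block, 35 genes were called in Flt3L KO, 28 in Flt3 KO and 31 in WT cDC1 against cDC2. A block with the numbers of both WT groups swapped, chosen after seeing the data, called 2 genes in Flt3L KO against WT cDC2, 1 in Flt3L KO against Flt3 KO cDC1 and 1 for the Flt3L KO effect, cDC1 minus cDC2. A fit without 1 array assumes that the lone array varies like the other groups. Only-the-arrays fits were not run for the genotype average, which uses every array.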

Other observations

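Rab2a, Rab5b and Rab11b each had a second, dimmer probe set that the comparisons did not use. That of Rab11b, a recycling Rab, was called higher in cDC1 in each genotype, with log2 differences of 0.54 in Flt3L KO, 0.48 in Flt3 KO and 0.48 in WT cells (limma adjusted p = 0.00052, 0.00123 and 0.00113). The brighter probe set of Rab11b had 0.33, 0.16 and -0.00 in the same genotypes and was called in Flt3L KO cells alone, so the probe sets of this gene disagreed. The second probe set of Rab2a, a Rab of the early secretory pathway, had 0.06, 0.40 and 0.21 (adjusted p = 0.688, 0.00593 and 0.114), against 0.33, 0.55 and 0.39 for the brighter one, which was called in each genotype. That of Rab5b had 0.03, -0.20 and -0.24, and was called in WT cells, as was the brighter one.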
